A study of Danio rerio with 17 samples.

Results

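The genes described here are the ubiquitin activating enzymes (uba symbols), the ubiquitin conjugating enzymes (ube2 symbols) and the deubiquitinases of the ubiquitin-specific protease (usp) and ovarian tumour (otud) families in the zebrafish oocyte. Members were taken by symbol: every gene whose symbol starts with ube2, usp or uba plus a number, or otud, was matched to the Ensembl identifiers of the count files and kept where its reads summed to at least 10 over the 17 libraries. Of 106 matching genes 100 were kept, among 15394 genes of the whole series with that many reads. They were 7 uba genes, 42 ube2 genes, 43 usp genes and 8 otud genes. The lowest member, UBE2W-44923, had 144 reads, and the other 6 matching genes, USP28, USP43, usp16, usp18, usp21 and usp2b, had 0 reads in all 17 libraries, which allows a level of up to 0.0109 CPM (reads scaled to the library total) over the pooled libraries, for counting error only. Where 2 genes carry the same symbol, the last 5 digits of the identifier follow it.

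The study cut single zebrafish (Danio rerio) oocytes by cryosectioning into 5 segments along the animal to vegetal axis and sequenced the total RNA of each segment after removal of ribosomal RNA. Segment E holds the vegetal end and segment A the animal end, with segments B, C and D between them. The libraries came from 4 oocytes, numbered 1 to 4, for which the labels name no strain, stage or treatment: 3 libraries of segment E, 4 of segment A, 3 of segment B, 4 of segment C and 3 of segment D. For oocyte 2 segment E, for oocyte 3 segment B and for oocyte 4 segment D is not analysed here, so segments E and A were both measured in 3 oocytes. The labels do not say whether the oocytes came from different females, so p-values measure the spread between these oocytes. A level is given as CPM scaled by trimmed mean of M values (TMM), the usual correction for library composition. CPM is a share of the reads of a segment, so that a different amount of RNA in a segment was not measured. Each gene's CPM also depends on its transcript length, which was not used here, so levels were compared between segments and not between genes.

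Ubiquitin is attached to proteins by 3 kinds of enzyme in sequence: an activating enzyme (E1) loads ubiquitin, a conjugating enzyme (E2) carries it, and a ligase (E3) directs it to the substrate. Deubiquitinases remove it again. Related E1 and E2 enzymes attach the ubiquitin-like proteins SUMO and NEDD8. In eggs, ubiquitin-dependent destruction of cyclin B by the anaphase promoting complex drives exit from meiosis, and RNAs stored along the animal to vegetal axis supply the early embryo. Roles given below are those known for the human, mouse or yeast proteins of the same name.

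The libraries held 4054233 to 23672322 reads in genes. The 5 libraries of oocyte 1 were the shallowest, with 4054233 to 9319365 reads, and had at most 0.00239% of their reads in spike-in RNA, against 0.185% to 0.802% in the other 12. Oocyte 1 thus stood apart, and the main result is also given without it. Segment C of oocyte 3 stood apart with 8535 genes detected, the fewest of any library. Known localized RNAs checked the orientation, all 4 called by edgeR: hwa, sybu and TRIM36, which encodes a RING ubiquitin ligase, had log2 fold changes of 10.18, 5.10 and 6.77 in segment E over segment A, and pou5f3 had -2.19. Among 13 oocyte marker genes, all were tested, with means from 1.88 CPM for zp2.1 to 1614 CPM for buc. Of these, 6 had a mean of at least 100 CPM. Of 22 follicle cell marker genes 14 had 0 reads and 6 were tested, with a summed level of 203 to 310 CPM in segment E and 160 to 385 CPM in segment A, most of it CYP11A1. Of 8 blood cell marker genes 7 had 0 reads, and the other, CORO1A, averaged 4.10 CPM. CYP11A1 averaged 129 CPM, and the oocyte markers DDX4, ZAR1 and bmp15 averaged 63.6, 38.2 and 272 CPM. Transcript length was not used, so these levels of different genes do not give the part of follicle cell RNA. The part of follicle cell RNA in the results below was not tested.

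Of the 98 members that passed the filter on low counts, 1 differed between the vegetal and the animal end, USP19, which encodes a deubiquitinase anchored in the membrane of the endoplasmic reticulum. USP19 was higher in segment E, 4.02-fold over segment A. The other 97 members were not called by edgeR's quasi-likelihood test at a Benjamini-Hochberg adjusted p under 0.05 over all 12549 genes tested. Of all genes 1.91% were called, 1.03% as higher and 0.885% as lower in segment E, so that 1 of 98 members, or 1.02%, is near the share of all genes. The joint test of any difference among the 5 segments also called USP19 and no other member, against 1.67% of all genes. The test of a linear trend over the 5 segments, in log2 units per segment step, again called USP19 alone, against 2.41% of all genes. At an unadjusted p under 0.05, 11 members (11.2%) differed between segments E and A, against 8.05% of all genes. Of these 11, 6 had a higher and 5 a lower estimate in segment E. Of all genes at that threshold 594 were higher and 416 lower. A second test, DESeq2, whose adjusted p is given beside some members below, called 687 of the 12549 genes between these ends. edgeR called 240.

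USP19 (ENSDARG00000004132) had 283.0, 238.1 and 286.4 CPM in segment E of oocytes 1, 3 and 4, against 25.9, 31.6, 59.9 and 150.0 CPM in segment A of oocytes 1, 2, 3 and 4. The 3 segment E libraries lay above all 4 segment A libraries, with oocyte 4 the highest of the animal ends. From A to E the mean levels were 66.8 ± 57.4, 104 ± 18.6, 113 ± 37.0, 173 ± 89.2 and 269 ± 27.0 CPM (SD, n = 4, 3, 4, 3 and 3). Segment E held 37.0% and segment A 9.19% of the sum of these means. The log2 fold change of segment E over segment A was 2.01 ± 0.46 (SE; 95% interval 1.08 to 2.94; edgeR adjusted p = 0.00533), a fold of 4.02 with an interval of 2.12 to 7.65. The slope was 0.48 ± 0.10 log2 units per segment step (SE; edgeR adjusted p = 0.00185), and the joint test gave an edgeR adjusted p of 0.0457.

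Within single oocytes the USP19 level in segment E over that in segment A was 10.9-fold in oocyte 1, 3.98-fold in oocyte 3 and 1.91-fold in oocyte 4, so it was higher at the vegetal end in 3 of 3. The size of the ratio therefore differed between oocytes more than its direction. Without oocyte 1 the log2 fold change was 1.70 and the edgeR adjusted p was 0.103, so the call between the ends was lost, while the trend kept its call with an edgeR adjusted p of 0.0329. Without segment A of oocyte 4 the log2 fold change was 2.78, and without segment C of oocyte 3, which also stood apart, it was 2.01 (edgeR adjusted p = 0.00405). The joint call was lost in 11 of 28 alternatives. The levels at the steps between neighbouring segments had log2 differences of 0.64 for B over A, 0.12 for C over B, 0.61 for D over C and 0.63 for E over D, and none of the 4 was called.

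**Figure D1:**
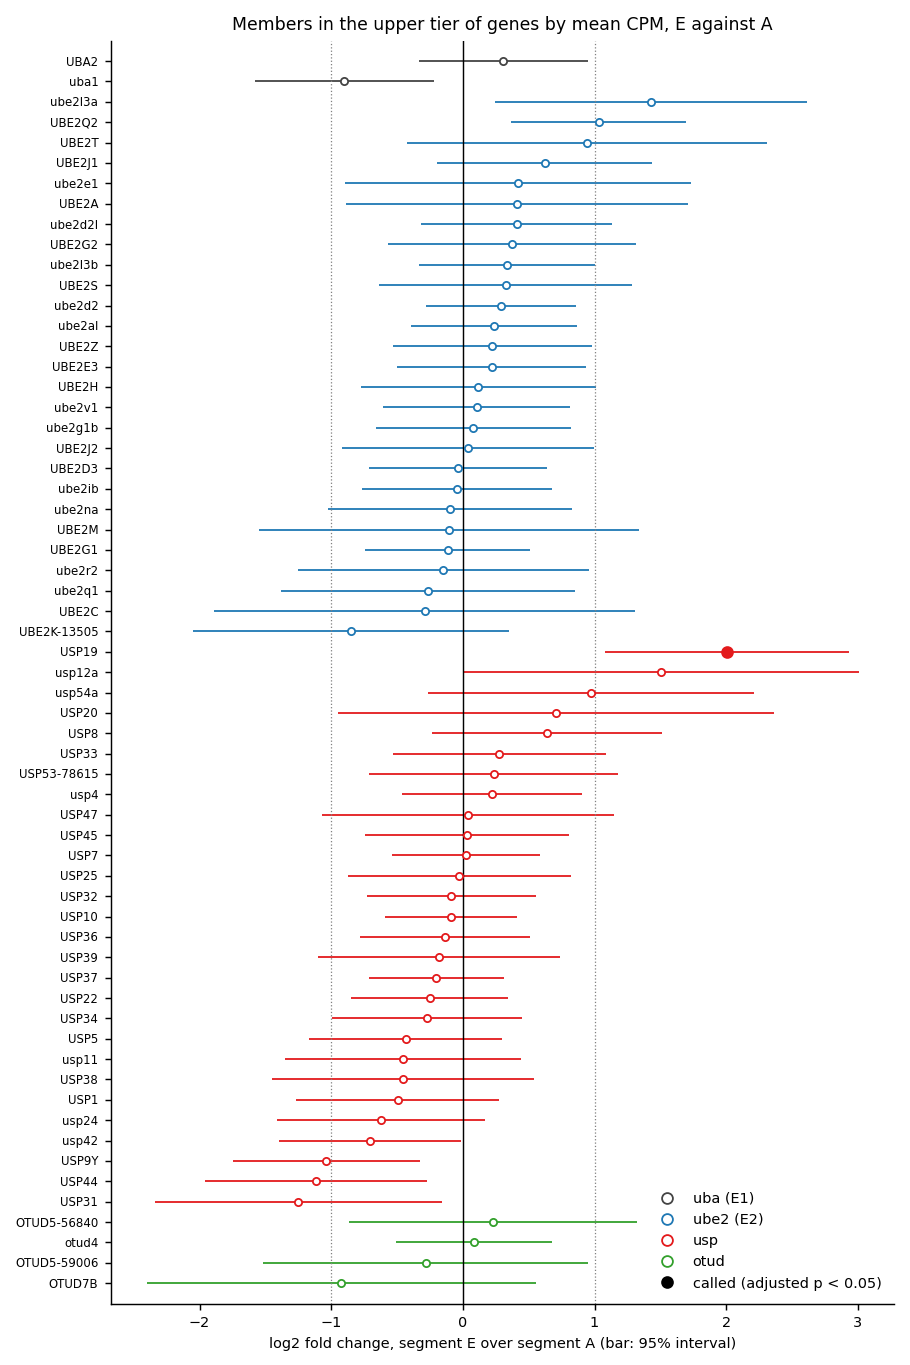
Log2 fold change of segment E over segment A (x axis, with 95% intervals as bars) for members in the upper tier of genes by mean CPM that are reported here, ordered within the uba, ube2, usp and otud genes (y axis). USP19, filled, lies farthest to the right at 2.01, and most intervals cross 0, marked by the solid line, with dotted lines at -1 and 1.

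The share called depended on level. The tested genes were ranked by mean CPM into 3 equal tiers, and all but 8 of the 240 genes called between segments E and A were in the upper tier, at or above 53.4 CPM, where 5.55% were called. That tier held 62 of the 98 tested members, and 1 of these (1.61%) was called. The middle tier held 24 members and the lower tier 12, with none called. The typical standard error of the log2 fold change was 0.41 among the 62 members and 1.95 among the other 36 (medians). In the upper tier the estimates ran from -1.25 for USP31 to 2.01 for USP19, with a median of 0.03, against a median of 0.02 for all 4183 genes of that tier. The plot of fold changes for members of this tier shows most estimates near 0.

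In 12 members (12.2%) the segment E and segment A libraries did not overlap, against 8.42% of all genes. The 6 with every segment E library above every segment A library were UBA3, UBE2Q2, ube2d2l, ube2l3a, USP19 and USP30-04175. For USP30-04175 this rests on 2 reads in segment E of oocyte 1, under the floor of 3 reads used below, against 0 in segment A. In the other 6, among them uba1, USP31, USP44, USP9Y and usp42, every segment E library lay below every segment A library. Apart from USP19, none of these passed the adjusted threshold, and values of those named follow with the member's role.

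Among the activating enzymes, uba1 (ENSDARG00000037559), the main E1 of ubiquitin, had 123, 145 and 168 CPM in segment E, against 339, 181, 215 and 352 CPM in segment A. All 3 vegetal values lay under all 4 animal values, and segment E was the lowest of the 5 segments. Its log2 fold change was -0.90 ± 0.34 (SE; edgeR adjusted p = 0.321; DESeq2 adjusted p = 0.0429). The middle segments B, C and D averaged 207 ± 22.5, 244 ± 39.8 and 279 ± 95.1 CPM (SD, n = 3, 4 and 3). UBA2 (ENSDARG00000101332), a subunit of the SUMO E1, had 184, 431 and 331 CPM in segment E and 214, 256, 264 and 286 CPM in segment A, with a log2 fold change of 0.31 ± 0.32 (SE; edgeR adjusted p = 1). Its groups overlapped, with oocyte 1 lower at the vegetal end and oocytes 3 and 4 higher. UBA3, the catalytic subunit of the NEDD8 E1, averaged 79.3 ± 22.7 CPM in segment E and 38.5 ± 13.9 CPM in segment A (SD, n = 3 and 4), a log2 fold change of 1.04 ± 0.78 (SE). Of the 7 uba genes 4 had a higher and 3 a lower estimate in segment E, and their median was 0.02 (log2). For this and the counts of direction below, 6283 of all genes tested had a higher and 6266 a lower estimate.

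The conjugating enzyme with the smallest p was UBE2Q2 (ENSDARG00000013990), a member of a less studied E2 subfamily. It had 498, 549 and 513 CPM in segment E, against 201, 231, 169 and 416 CPM in segment A. The 3 vegetal values were close together and above all 4 animal values, of which oocyte 4 was the highest. Segments B, C and D averaged 232 ± 95.9, 252 ± 87.9 and 271 ± 77.99 CPM (SD, n = 3, 4 and 3), and segment E had the highest mean, 520 ± 25.8 CPM (SD, n = 3). The log2 fold change of 1.03 ± 0.33 (SE; 95% interval 0.37 to 1.70) had an unadjusted p of 0.00292 and an edgeR adjusted p of 0.127, which is not a call. The level was higher in segment E in 3 of 3 oocytes, 2.48-fold, 3.25-fold and 1.23-fold in oocytes 1, 3 and 4. With the authors' size factors in place of TMM the edgeR adjusted p was 0.0267, and 0.0120 with the oocyte as a block as well. With TMM and no block it was 0.0169 without segment A of oocyte 4, 0.566 without oocyte 1 and 0.601 without oocyte 3. UBE2Q2 was not called between the ends in 24 of 28 alternatives.

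Next by p among the conjugating enzymes was ube2l3a (ENSDARG00000112087), a homologue of human UBE2L3, which works with HECT and RBR ligases. It had 144, 154 and 186 CPM in segment E and 74.5, 78.1, 50.8 and 36.8 CPM in segment A, without overlap. The log2 fold change was 1.43 ± 0.59 (SE; edgeR adjusted p = 0.476), with 3 of 3 oocytes higher in segment E. Its lowest library was segment C of oocyte 3, the one that stood apart, with 6.01 CPM. The paralogue ube2l3b averaged 219 ± 43.8 CPM in segment E and 174 ± 11.1 CPM in segment A (SD, n = 3 and 4), a log2 fold change of 0.34 ± 0.34 (SE). Reads that aligned to more than 1 place were set aside as not unique, so reads that fit both paralogues may be missing from both.

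The ube2d and ube2e genes encode E2s that act with many RING ligases. Of 9 genes 6 had a higher and 3 a lower estimate in segment E, the median being 0.22 (log2), and none was called. The most read of all ube2 genes, ube2d2 (ENSDARG00000043484), had 385, 447 and 426 CPM in segment E and 226, 259, 438 and 448 CPM in segment A. These overlapped, and the log2 fold change of 0.29 ± 0.29 (SE) had a 95% interval of -0.28 to 0.86. ube2d2l was the other conjugating enzyme without overlap, at 228 ± 29.7 CPM in segment E and 172 ± 28.2 CPM in segment A (SD, n = 3 and 4), a log2 fold change of 0.41 ± 0.36 (SE).

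Of the RAD6-type and DNA repair E2s, UBE2A, UBE2B, ube2al and UBE2T, all 4 had a higher estimate in segment E and none was called. ube2al (ENSDARG00000003017) had 444, 251 and 377 CPM in segment E and 301, 286, 251 and 376 CPM in segment A, which overlapped. Its log2 fold change was 0.24 ± 0.31 (SE; edgeR adjusted p = 1). UBE2B held 3 reads or fewer in 7 of 17 libraries, so its estimate of 4.15 ± 2.45 (SE, log2) is weakly determined. It held 360 and 787 reads in segments C and D of oocyte 2 and 0 in segment B of the same oocyte.

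The other groups of conjugating enzymes held no call either. Of the 5 E2s of protein disposal at the endoplasmic reticulum, UBE2G1, ube2g1b, UBE2G2, UBE2J1 and UBE2J2, 4 had a higher estimate in segment E, from -0.12 to 0.62 with a median log2 fold change of 0.08. The highest was UBE2J1, at 186 ± 32.8 CPM in segment E and 121 ± 29.0 CPM in segment A (SD, n = 3 and 4; edgeR unadjusted p = 0.133). The E2s of the anaphase promoting complex were UBE2C, which starts ubiquitin chains, and UBE2S, which extends them. UBE2C averaged 45.9 ± 53.6 CPM in segment E and 56.0 ± 25.5 CPM in segment A, and UBE2S 142 ± 55.4 CPM in segment E and 113 ± 38.9 CPM in segment A (SD, n = 3 and 4). UBE2N and UBE2V genes, which make lysine-63 chains in pairs, had a median of 0.08 over 4 genes.

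Of the 42 ube2 genes 40 were tested, 25 with a higher and 15 with a lower estimate in segment E and a median log2 fold change of 0.15, against 0.00 for all genes tested. The quartiles were -0.12 and 0.41, within those of all genes at -0.72 and 0.69. The 2 genes not tested were UBE2QL1, with 133 reads in segment B of oocyte 2 and 127 in segment D of oocyte 3, and UBE2W-44923, with 144 reads in segment C of oocyte 2.

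**Figure D2:**
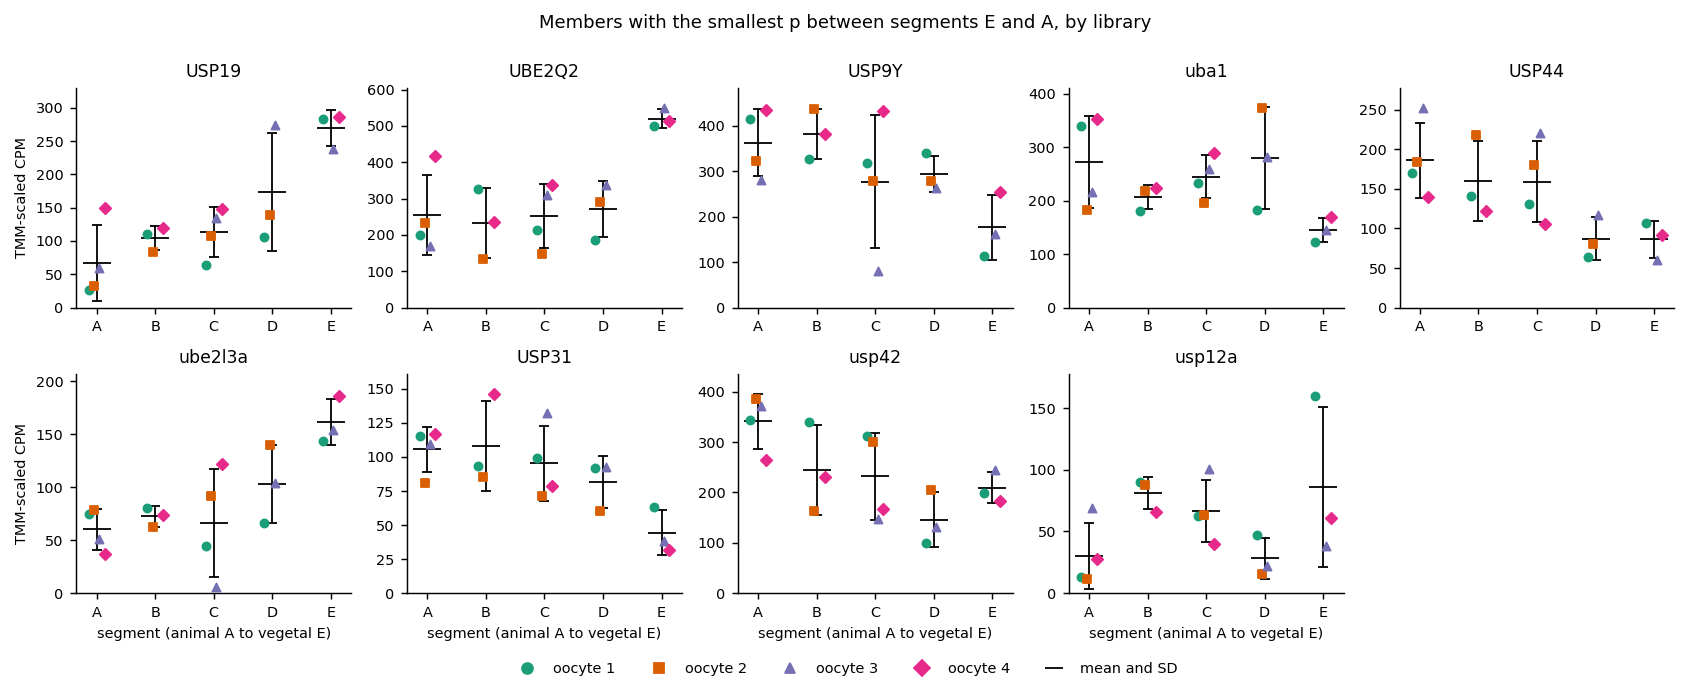
TMM-scaled CPM (y axis) by segment from A to E (x axis) for the 9 members with the smallest p between segments E and A among those over 50 CPM on average, with 1 point per library coloured by oocyte, and mean and SD in black. In the USP19, UBE2Q2 and ube2l3a panels the segment E points lie above those of segment A. In those of USP9Y, uba1, USP44, USP31 and usp42 they are lower than those of segment A.

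Of the 43 usp genes 16 had a higher and 27 a lower estimate in segment E, and their median was -0.15 (log2). USP19 was the 1 called. Of the 7 deubiquitinases of membranes and vesicle traffic, which include USP8 of endosomes and USP30 of mitochondria, 6 had a higher estimate in segment E, with a median of 0.64 and USP19 the one called. Of the 11 deubiquitinases of chromatin, nucleolus and DNA repair, 9 had a lower estimate, with a median of -0.50 and none called. Of all genes tested 6283 had a higher and 6266 a lower estimate. The membrane group includes USP30-04175, with 0 reads in segment A. In oocyte 4, USP8 and USP20 had 43.1 and 124 CPM in segment E, against 78.9 and 161 CPM in segment A. Both were higher in segment E in oocytes 1 and 3. These groups were set with earlier results of the data known, and neither was tested as a set.

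Of the chromatin group, USP44 (ENSDARG00000089861), which acts on histone H2B and on the spindle checkpoint, had 107, 60.4 and 91.2 CPM in segment E, against 170, 184, 252 and 140 CPM in segment A. All vegetal values lay under all animal values, and segment D averaged 87.3 ± 27.4 CPM (SD, n = 3), close to segment E at 86.3 ± 23.8 CPM (SD, n = 3). The log2 fold change was -1.11 ± 0.42 (SE; edgeR adjusted p = 0.324; DESeq2 adjusted p = 0.0392), lower in 3 of 3 oocytes. In the trend test the edgeR adjusted p was 0.0792 and the DESeq2 adjusted p 0.00817. usp42 (ENSDARG00000077300), another nuclear deubiquitinase, had 199.9, 244 and 184 CPM in segment E and 344, 385, 372 and 264 CPM in segment A, without overlap, at a log2 fold change of -0.71 ± 0.35 (SE; edgeR adjusted p = 0.612). The most read of the group was USP7 (ENSDARG00000073710), which acts on MDM2 and p53. It had 382, 400 and 417 CPM in segment E and 460, 452, 274 and 388 CPM in segment A. The groups overlapped, and the log2 fold change of 0.02 ± 0.28 (SE) had an interval of -0.54 to 0.59. USP22, a subunit of the SAGA coactivator complex, had 353, 248 and 243 CPM in segment E and 294, 401, 320 and 324 CPM in segment A, and its log2 fold change was -0.25 ± 0.30 (SE; 95% interval -0.85 to 0.35).

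Among the other usp genes, USP9Y (ENSDARG00000013708) carries the symbol of a large deubiquitinase of the USP9X family. It had 113, 163 and 254 CPM in segment E, against 416, 322, 280 and 435 CPM in segment A. The groups did not overlap, and the estimate was lower in segment E in 3 of 3 oocytes. Its log2 fold change of -1.04 ± 0.35 (SE) had an edgeR adjusted p of 0.193, and 0.0445 without segment E of oocyte 4. USP9Y was not called between the ends in 27 of 28 alternatives, in which the edgeR adjusted p reached 0.963. USP31 (ENSDARG00000074017) had 63.3, 38.3 and 31.7 CPM in segment E and 115, 80.7, 109 and 117 CPM in segment A, without overlap. Its log2 fold change was -1.25 ± 0.54 (SE; edgeR adjusted p = 0.565; DESeq2 adjusted p = 0.0275). usp12a, whose human homologue works with WD-repeat cofactors, had 160, 37.9 and 60.7 CPM in segment E and 13.5, 11.1, 68.9 and 28.0 CPM in segment A. These overlapped, with oocyte 3 lower in segment E, at a log2 fold change of 1.504 ± 0.75 (SE; edgeR adjusted p = 0.621).

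The usp genes with the most reads had narrow intervals around 0. USP10 (ENSDARG00000103422), which binds the stress granule protein G3BP, had 874, 688 and 713 CPM in segment E and 671, 1101, 667 and 792 CPM in segment A. The groups overlapped, and the means of the 5 segments ran from 732 CPM in segment D to 808 CPM in segment A. The log2 fold change was -0.09 ± 0.25 (SE) with a 95% interval of -0.59 to 0.41, which leaves out a change of 2-fold or more in either direction. USP37 (ENSDARG00000040990), which acts on cyclin A, had 699, 469 and 532 CPM in segment E and 686, 860, 543 and 517 CPM in segment A, at -0.20 ± 0.26 (SE, log2) with an interval of -0.72 to 0.31. Of the 62 members in the upper tier by level, 22 had an interval within -1 and 1 (35.5%), against 24.5% of all genes in that tier.

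**Figure D3:**
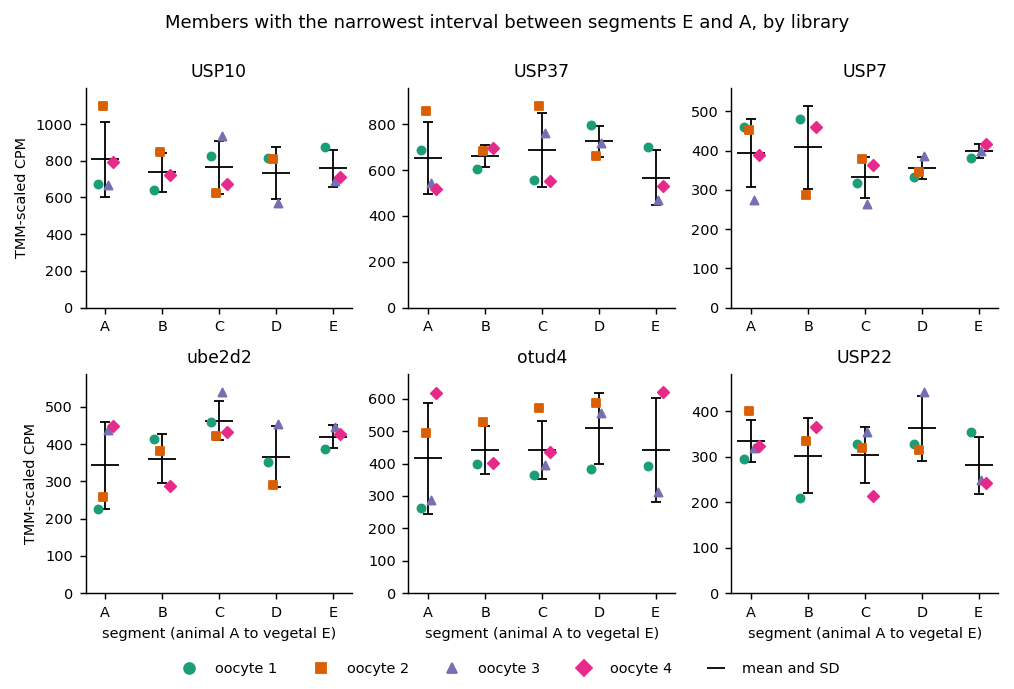
TMM-scaled CPM (y axis, from 0) by segment from A to E (x axis) for the 6 members over 50 CPM with the smallest standard error between segments E and A and an interval within -1 and 1, with 1 point per library and mean and SD in black. The points of segment E and segment A overlap in all 6 panels.

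The otud genes divided into 4 with a higher and 4 with a lower estimate in segment E, at a median of -0.13 (log2), and none was called. otud4 (ENSDARG00000077810), an RNA-binding deubiquitinase, had 392, 312 and 620 CPM in segment E and 262, 494, 289 and 619 CPM in segment A. Oocyte 4 was the highest at both ends, while in segments B and C oocyte 2 was the highest, at 528 and 571 CPM. The log2 fold change of otud4 was 0.09 ± 0.30 (SE; 95% interval -0.51 to 0.68). A pair of genes carried the symbol OTUD5, a deubiquitinase of signalling and chromatin regulators. OTUD5-56840 had 92.3, 93.0 and 126 CPM in segment E and 91.0, 76.2, 100.5 and 87.2 CPM in segment A, with the highest library, 214 CPM, in segment B of oocyte 2. OTUD5-59006 had 149, 44.4 and 49.6 CPM in segment E and 17.2, 211, 134 and 31.5 CPM in segment A, which overlapped widely. Their log2 fold changes were 0.23 ± 0.55 and -0.28 ± 0.62 (SE). Reads that fit both genes may be missing from both, since reads that were not unique were set aside.

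Some members were seen in few libraries. In 26 of the 98 tested members (26.5%) at least 1 library held 3 reads or fewer, against 55.7% of all genes tested, and in none of the 62 members of the upper tier. USP30-04175, 1 of 2 genes with the symbol of the mitochondrial deubiquitinase, held 2, 121 and 350 reads in segment E of oocytes 1, 3 and 4 and 0 in all 4 segment A libraries. Against a floor of 3 reads per library its mean of 8.02 CPM in segment E was at least 40.1-fold higher (edgeR adjusted p = 0.572; DESeq2 adjusted p = 1.1e-05). That limit rested mostly on oocyte 4: without its segment E library the mean was 3.04 CPM and the limit 15.2-fold, and the 2 reads of oocyte 1 were under the floor. Of the 3 segment D libraries it was read in that of oocyte 3 alone, at 270 reads. USP53-76499 held 308 reads in segment E of oocyte 4 and 0 in the other 2 segment E libraries and in all of segment A. usp43b held 35 reads in segment E of oocyte 4 and 0 in segment A, and 174 in segment B of oocyte 4.

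Between neighbouring segments no member was called by edgeR in any of 4 steps. Of all genes 0.00797% were called for B over A, 0.0478% for C over B, 0.104% for D over C and 0.175% for E over D. Of the 98 tested members, 3 had an unadjusted p under 0.05 for B over A, against 4.8% of all genes. There were 2 for C over B, against 5%, 3 for D over C, against 5.67%, and 6 for E over D, against 4.05%. DESeq2 called 0, 2, 1 and 0 members at an adjusted p under 0.05. These were UBE2B and USP30-04175 for C over B, and USP30-04175 for D over C. The shares of all genes called by DESeq2 at these steps are not given here. USP30-04175 held 1 read over all segment B libraries and 0 in segment C, so its C over B call compares values at the floor. Its D over C call rests on the 270 reads in segment D of oocyte 3. The 6 for E over D at an unadjusted p were uba1, with a log2 difference of -0.94, and UBE2Q2, ube2al, ube2d2l, usp4 and usp12b, with 0.94, 0.83, 0.92, 0.80 and 2.75. In 5 of the 6 the estimate was higher in segment E than in segment D. Of all genes at that unadjusted threshold 298 were higher and 210 lower in segment E.

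Summed over their genes, the 100 members took 1.22% to 1.28% of the reads of each segment on average. The 42 ube2 genes summed to 4730 ± 615, 4407 ± 419, 4920 ± 684, 4521 ± 557 and 5582 ± 105 CPM from A to E (SD, n = 4, 3, 4, 3 and 3). Segment E had the highest mean, but its lowest library, at 5478 CPM, lay under the highest of segment A, at 5633 CPM. The 43 usp genes summed to 6457 ± 471, 6407 ± 423, 6210 ± 476, 6297 ± 425 and 5878 ± 580 CPM from A to E, with the lowest mean in segment E and overlapping libraries. No test was made of these sums, since the members were chosen with results known.

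**Figure D4:**
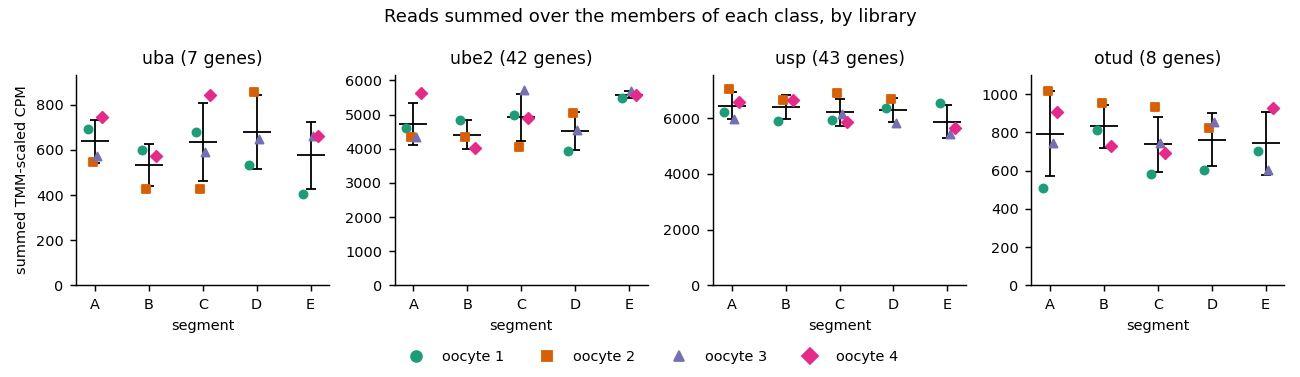
TMM-scaled CPM summed over the 7 uba, 42 ube2, 43 usp and 8 otud genes (y axes, from 0) by segment from A to E (x axes), with 1 point per library coloured by oocyte, and mean and SD in black. Segment E has the highest mean for the ube2 genes, 5582 CPM, and the lowest for the usp genes, 5878 CPM.

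The segment with a member's highest mean was E for 28 of the 98 tested members (28.6%), against 23.3% of all genes. It was A for 18 (18.4%), B for 19 (19.4%), C for 17 (17.3%) and D for 16 (16.3%). Of all genes it was A for 19.9%, B for 19.9%, C for 17.3% and D for 19.6%. With the authors' size factors in place of TMM the members were 15 (15.3%) for E and 4 (4.08%) for A. They were 28 (28.6%) for B, 17 (17.3%) for C and 34 (34.7%) for D. All genes then had 13.8% for E, 7.16% for A, 25.8% for B, 19.7% for C and 33.5% for D. The order of segments thus depended on the scaling, for the members and for all genes. The authors' factors moved the median log2 fold change of all genes by 0.22 and left 63 of 98 members with a higher estimate in segment E, against 49 with TMM. The median of the members was then 0.21, against 0.22 for all genes.

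The genes of the same system outside the symbol rule were set in 5 lists. These held other E1 and E2 genes, subunits of the anaphase promoting complex, the modifiers themselves, and deubiquitinases of other families. The last list also held related genes, such as the senp genes, DESI2 and EIF3H, and not all of its genes are deubiquitinases. Of 87 such genes tested 41 had a higher and 46 a lower estimate in segment E, and the median was -0.02 (log2). None was called by edgeR between segments E and A, in the joint test or in the trend test, with 3, 2 and 3 at an unadjusted p under 0.05. Of all genes tested, edgeR called 1.91%, 1.67% and 2.41%, and 8.05%, 7.08% and 7.5% were at that unadjusted p. DESeq2 called 0, 1 and 0, the 1 being ATG3, the E2-like enzyme of autophagy. In the joint test edgeR called BIRC6 and DESI2 with the authors' factors, BIRC6 with the oocyte as a block, and BIRC6, EIF3H, DESI2 and ubc with both. BIRC6, a large E2-like enzyme that inhibits cell death, was also called lower in segment E than in segment A with the block. It averaged 328 ± 197 CPM in segment E and 566 ± 84.3 CPM in segment A (SD, n = 3 and 4). Its log2 fold change was -0.89 with the block (edgeR adjusted p = 0.0439) and -0.79 without it (edgeR adjusted p = 0.361). Without a block, the estimate was -0.36 without segment E of oocyte 1 (edgeR adjusted p = 0.939) and -1.20 without segment E of oocyte 4 (edgeR adjusted p = 0.0297). Over the alternatives its adjusted p ran from 0.0297 to 0.963 between the ends and from 2.0e-06 to 1.0 in the joint test. Between the ends edgeR called 288 of all genes with the block. For the joint test with DESeq2, the authors' factors or the block, shares of all genes called are not given here. Those calls are therefore not results about the lists. These genes were chosen after their values were seen.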

How the data were processed

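Raw read counts per gene and a table of normalized signal were deposited by the authors for single-oocyte segments; the labels give 5.5 ng RNA input, RiboCop depletion and the SENSE total RNA kit. Per the submitters' processing notes, which give no roles, Trimmomatic, STAR 2.5.3a, HTSeq, DESeq2 and build GRCz11 were used. Annotation and strand setting are not given in the sources used here, so overlapping and antisense genes cannot be told apart. The deposited normalized signal, multiplied by each library's factor, gave whole reads for 100% of values within 0.01 reads, and 100% equalled the counts; with those factors 233 genes were called between segments E and A, against 240 with TMM.

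The members and gene lists were chosen with earlier results of these data known. Symbols came from a gene-name table (29201 of 32520 identifiers, 89.8%). Spike-in RNAs (92) and 5 summary entries were left out of library sizes: 4.60% to 6.10% of reads had no feature, 0.502% to 0.633% were ambiguous and 6.88% to 14.2% not unique. Libraries held 4054233 to 23672322 counts in genes. The limits set for 0 reads and the floor of 3 reads cover counting error only, while intervals of fold changes come from the edgeR fit and include the spread between libraries.

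Counts were tested with edgeR 4.0.16 in R 4.3.3 (quasi-likelihood F test, TMM, filter at a minimum count of 10 by segment, all 17 libraries, no block). SE is the absolute log2 fold change over the square root of F. A call is a Benjamini-Hochberg adjusted p under 0.05 over 12549 genes. The edgeR fit alone was also run on simulated counts, drawn independently for each library. Its outcome is not given here, and it does not cover shared spread within an oocyte. Alternatives were RLE factors, library sizes alone, the authors' factors, no filter, DESeq2 1.42.0, the oocyte as a block and leaving out each library or oocyte.

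Segments with the same number come from the same oocyte, per the labels, so the numbers pair them. Deviations from segment means correlated at a median r of 0.073 over 28 same-oocyte pairs (-0.088 to 0.279; 11 over 0.1) and -0.033 over 87 other pairs, across 2684 genes. Libraries of 1 oocyte are not independent, and the test without a block does not use this.

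Members named with values are every member called, then those of smallest p between segments E and A until 12 were reached, the 3 most read ube2, usp and otud genes, the 2 most read uba genes, and 6 level members of over 50 CPM with the smallest SE and an interval within -1 and 1. Others are named as the remaining members of a group. Some of these, such as UBA3, ube2d2l, UBE2J1, UBE2B and uba7, are given with values because of those values. Sequences were not used here. Values of a few members are not reported here, though they stay in the counts.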

Additional observations from a re-analysis of the deposited data

Results flagged for a closer look

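In each segment with 4 libraries, the highest or lowest library was compared with the other 3 for the members named above, in 40 groups, of which chance alone would set about 2 apart. In 2 groups 1 library stood apart. USP53-76499 had 6.95 CPM in segment C of oocyte 4 and 0 in the other 3 libraries of segment C. usp43b had 5.92 CPM in segment C of oocyte 2 and 0 in the other 3. Both are members with reads in 3 of 17 libraries. With 0 in the other 3 libraries of a group, any read sets the remaining library apart. The number expected by chance therefore says nothing about these 2 groups.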

How the results depend on the processing

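Over 26 alternatives the median log2 fold change of the members between segments E and A ran from -0.08 to 0.21, and the trend of USP19 was called in all 28 alternatives run for it (edgeR or DESeq2 adjusted p 8.90e-05 to 0.0405). Its call between the ends was lost without oocyte 1 alone (adjusted p 6.87e-06 to 0.103). Between segments E and A, 240 of 12549 genes were called in the main test and 687 with DESeq2. With the authors' factors 233 were called, and 287 with the replicate block as well. The number of members called between these ends was 1 in the main test and 2 with the authors' factors, with or without the block. It was 5 with DESeq2 (uba1, USP19, USP30-04175, USP31 and USP44) and 0 to 2 with a library or oocyte left out. In the joint test it was 0 with library sizes alone, where USP19 had an edgeR adjusted p of 0.0732, 2 with no filter, 7 with the replicate block and the authors' factors (uba1, UBE2Q2, otud4, USP19, USP34, USP8 and USP9Y), and 0 to 2 in the left-out sets. In the trend it was 3 with no filter, 2 with DESeq2 and 1 to 2 in the left-out sets. Between neighbours it was 2 for C over B and 1 for D over C with DESeq2, and 2 for E over D with the replicate block and the authors' factors (uba1 and USP9Y). The replicate block alone, with TMM, kept 1, 1 and 1 called in these 3 tests, USP19 at a log2 fold change of 2.19 (edgeR adjusted p = 8.76e-05), and changed no member's call. For the joint test, the trend and the neighbour steps, shares of all genes called under these alternatives are not given here. Those member counts are therefore not results about the members. The cause of the differences between settings was not tested.

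Some members changed sign, none of them called. Among them usp12a and usp43b, whose slopes changed sign, were not near-level between segments E and A. With the authors' factors, and with those and the replicate block, log2 fold changes were 0.13 and 0.19 for USP10, and 0.025 and 0.098 for USP37. With both together they were 0.42 for OTUD5-59006 (0.20 with the block alone) and 0.0025 for USP22. USP7 had -0.014 with library sizes alone. Under the same pair of settings the slopes were 0.056 and 0.067 for USP10, 0.065 and 0.075 for USP37, 0.051 and 0.070 for USP7, and 0.065 and 0.059 for USP22. The slope of OTUD5-59006 was 0.033 with both together, and that of usp43b 0.13 with the block alone and 0.089 with both. With a library or oocyte left out, log2 fold changes ran from -0.28 to 0.12 for USP10, -0.12 to 0.14 for USP7, -0.22 to 0.34 for otud4 and -1.42 to 0.43 for OTUD5-59006. Slopes ran from -0.078 to 0.023 for USP10, -0.054 to 0.016 for USP37, -0.055 to 0.020 for USP7, -0.079 to 0.0078 for USP22, -0.25 to 0.061 for OTUD5-59006, -0.027 to 0.061 for ube2al, -0.050 to 0.36 for usp12a and -1.46 to 1.59 for usp43b. Without segment E of oocyte 4, USP53-76499 and usp43b had no read at either end and no fold. The effect of depth was not tested apart from level.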

Other observations

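The ISG15-activating enzyme uba7 had reads only in libraries of oocyte 1: 90, 13, 181, 0 and 50 reads in segments A to E, 334 in all, and 0 in the 12 libraries of the other oocytes. These 5 libraries were the shallowest and had the fewest spike-in reads. It was 1 of 6 members with no reads in at least 1 oocyte, and 1 of 2 seen in a single oocyte, the other being UBE2W-44923. The shares of all genes with such patterns are not given here, so these counts are not results about the members. These members were singled out after their values were seen, and the differences between oocytes were not tested.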
